A study of Mus musculus with 2 samples.

Results

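The genes of the prostaglandin and leukotriene enzymes were followed through the cell types of the mouse meninges after a Sham procedure or a mild traumatic brain injury (TBI). The 10 genes were chosen by symbol from the 32285 gene features of the count matrices, and each symbol matched 1 feature. They are Ptgs1, Ptgs2, Ptgds, Ptges, Hpgds, Hpgd, Alox5, Alox5ap, Ltc4s and Lta4h.

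Both families of lipids start from arachidonic acid, which phospholipases free from cell membranes. The cyclooxygenases COX-1 (Ptgs1) and COX-2 (Ptgs2) turn it into prostaglandin H2, from which separate synthases make prostaglandin D2 (Ptgds and Hpgds) and prostaglandin E2 (Ptges), and the dehydrogenase encoded by Hpgd inactivates prostaglandins. The lipoxygenase encoded by Alox5, helped by its membrane partner FLAP (Alox5ap), makes leukotriene A4, which Lta4h turns into leukotriene B4, an attractant of neutrophils, and Ltc4s into leukotriene C4, the first cysteinyl leukotriene. COX-1 is made steadily in many cells and COX-2 is inducible. Ptgds is long known as an abundant transcript of the arachnoid and the choroid plexus.

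The data were 2 libraries of droplet single-cell RNA-seq of dorsal meninges, 1 labelled Sham and 1 labelled TBI. Each was made from the pooled meninges of 5 male wild-type C57BL/6J mice aged 10 weeks. The TBI mice had a single mild closed-skull hit and the Sham mice a sham procedure, and the tissue, taken 1 week later, left out the site of the hit. Live single cells were sorted on a DAPI stain and about 4000 per sample were loaded. With 1 library per group, no difference between Sham and TBI had a replicate behind it, so no test was made, and differences between mice, preparations and the injury cannot be told apart. A share of cells was read after dissociation and sorting, and is not a number of cells in the tissue.

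After the filters 2043 Sham cells with 7866611 unique molecular identifiers (UMIs, each 1 captured transcript) and 3773 TBI cells with 13940740 UMIs were left, at medians of 2764 and 2663 UMIs per cell. The kept cells of the libraries had 14 barcode sequences in common. Clustering without the 10 genes gave 28 clusters, of which 26 could be named from marker genes, in 19 classes. Class names carry -like for that reason. The other 2 clusters held 58 Sham and 154 TBI cells. Brain markers summed to 29.1 and 25.2 CPM (2 of 9 at 0, Ccdc153 and Tmem212), and red cell markers to 1624 CPM in Sham and 285 CPM in TBI. Levels are given as UMIs per 1000000 UMIs of a class (CPM), with exact 95% Poisson intervals, and ratios as log2 of TBI over Sham with 0.5 added to each sum and exact binomial intervals, all of which cover counting error only. Tags come from transcript ends and are not scaled to length, so levels are compared between classes and not between genes. A class without a UMI was given a floor of 3 counts.

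RefSeq promoter windows were matched for 9 of the 10 genes by symbol. Shown are 4 on which the results turn: the cyclooxygenase pair and the prostaglandin D synthase pair. The first pair shared endothelial-like but not macrophage-like cells, and the main cell classes of the second pair differed. Each window is the 250 bases before the RefSeq start, on GRCm38.p6, written 5′ to 3′ along the gene, with a matched motif in capitals. Ptgs1 (plus strand) is the window chr2:36230176-36230425, Ptgs2 (plus) chr1:150099781-150100030, Ptgds (minus) chr2:25469750-25469999 and Hpgds (minus) chr6:65144731-65144980.
Ptgs1: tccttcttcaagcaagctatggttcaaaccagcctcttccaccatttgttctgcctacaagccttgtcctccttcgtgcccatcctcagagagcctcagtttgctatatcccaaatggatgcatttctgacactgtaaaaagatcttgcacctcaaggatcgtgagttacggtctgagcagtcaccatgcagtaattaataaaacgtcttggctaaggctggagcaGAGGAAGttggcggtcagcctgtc
Ptgs2: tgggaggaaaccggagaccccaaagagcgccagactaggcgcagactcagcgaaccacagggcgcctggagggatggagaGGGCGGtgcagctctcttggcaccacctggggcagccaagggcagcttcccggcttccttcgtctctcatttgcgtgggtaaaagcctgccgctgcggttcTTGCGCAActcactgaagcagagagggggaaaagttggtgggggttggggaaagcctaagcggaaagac
Ptgds: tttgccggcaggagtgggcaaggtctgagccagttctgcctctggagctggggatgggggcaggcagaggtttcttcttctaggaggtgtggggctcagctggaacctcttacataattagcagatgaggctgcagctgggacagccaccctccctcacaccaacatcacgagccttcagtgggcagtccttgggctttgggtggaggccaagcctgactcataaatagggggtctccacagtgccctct
Hpgds: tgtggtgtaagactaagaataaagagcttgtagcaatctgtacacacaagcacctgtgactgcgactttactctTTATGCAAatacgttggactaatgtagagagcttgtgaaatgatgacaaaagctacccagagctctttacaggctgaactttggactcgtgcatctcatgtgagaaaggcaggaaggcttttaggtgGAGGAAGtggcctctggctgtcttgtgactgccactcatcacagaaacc
The motifs searched, on both strands, were the TATA box TATAAA, the core of the site of the myeloid factor PU.1 GAGGAAG, the GC box GGGCGG, the short cyclic AMP response element TGACG and the C/EBP site TTGCNNAA. No 2 of these letter strings contain one another. They occur in 12.4%, 10.6%, 32.7%, 17.8% and 9.56% of 32851 mouse promoter windows of the same length. The Ptgs1 window held 1 PU.1 core, starting at -24 from the start site. That of Ptgs2 held 1 GC box at -170 and 1 C/EBP site at -69, and that of Hpgds 1 PU.1 core at -49 and 1 C/EBP site at -176. The Ptgds window held no match to the 5 strings. Among the windows not shown, Ptges held 2 GC boxes, Hpgd and Alox5 held 1 each, and Ltc4s and Lta4h held none of the 5. A match is a run of letters and is not a measured binding site.

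The 10 genes were high in different cell classes, and for each but Alox5ap the named class with the highest level was the same in both libraries. Endothelial-like cells had the most Ptgs1, fibroblast-like cells the most Ptges and, with the choroid plexus-like cells, Ptgds. Macrophage-like cells had the most Hpgds, Hpgd and Ltc4s. Alox5ap was broad among myeloid classes and Alox5 was sparse in all. Lta4h was found in each of the 19 classes. In B-like cells, taken as the reference for free RNA, the 7 genes that such cells should lack stood at 12.2 CPM or less in each library.

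**Figure D1:**
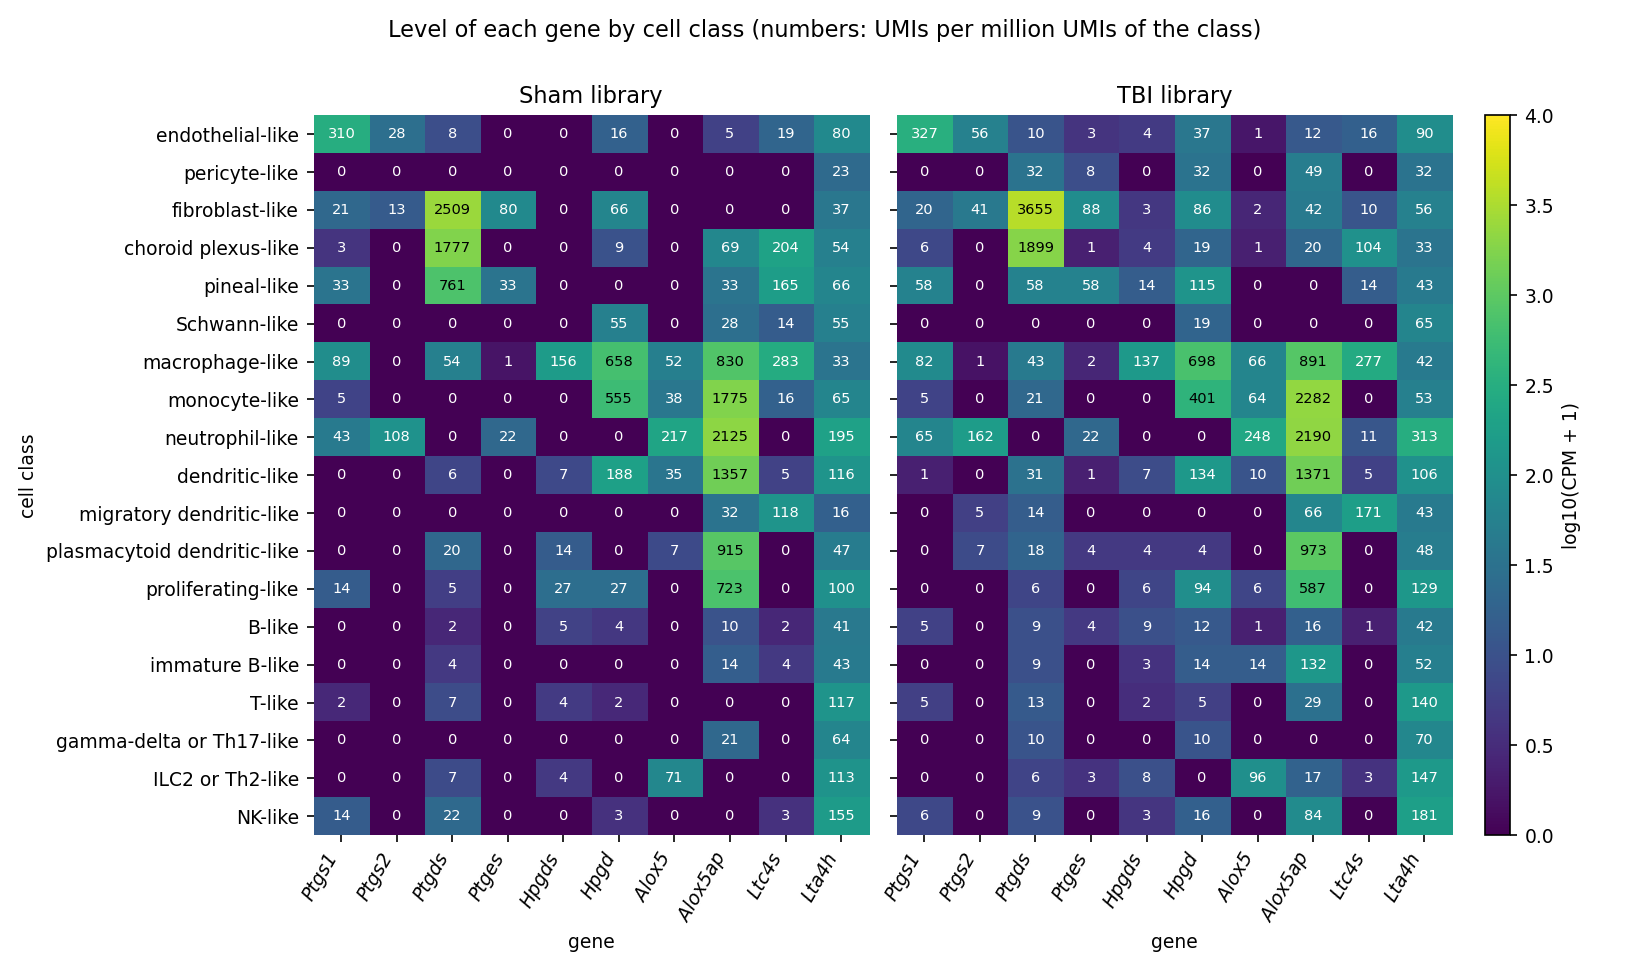
Level of each of the 10 genes (horizontal axis) in each of the 19 named cell classes (vertical axis) in the Sham library (left) and the TBI library (right). Each number is the CPM of the class and the colour its log10 after adding 1. Ptgs1 stands out in the endothelial-like row (310 and 327 CPM), Ptgds in the fibroblast-like and choroid plexus-like rows, and Alox5ap in the myeloid rows.

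Ptgs1, the gene of COX-1, lies at chr2:36230426-36252272 on the plus strand (GRCm38, ENSMUSG00000047250, protein coding). Endothelial-like cells held it at 310 CPM (268 to 357, 191 UMIs) in Sham and 327 CPM (297 to 359, 431 UMIs) in TBI, above every other class beyond the counting intervals in both libraries. Macrophage-like cells followed at 88.9 CPM (137 UMIs) and 82.3 CPM (288 UMIs), level between the libraries. Neutrophil-like cells had 43.4 and 64.7 CPM from 8 UMIs in all, which cannot be set apart from the macrophage-like level. Of all Ptgs1 UMIs, 52.9% in Sham and 53.7% in TBI came from endothelial-like cells and 38.0% and 35.9% from macrophage-like cells. None of the 371 Sham B-like cells had a UMI, which allows a share of up to 0.809% of such cells.

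Ptgs2, the gene of COX-2, lies at chr1:150100031-150108227 on the plus strand (ENSMUSG00000032487). It was sparse, with 27 UMIs in 18 Sham cells and 192 UMIs in 85 TBI cells. Neutrophil-like cells had the highest level, 108 CPM (35.2 to 253, 5 UMIs) in Sham and 162 CPM (90.6 to 267, 15 UMIs) in TBI. Endothelial-like cells had 27.6 CPM (16.1 to 44.2) and 56.1 CPM (44.1 to 70.4). Fibroblast-like cells had 13.3 CPM (4.31 to 30.9) and 40.8 CPM (33.0 to 49.9). Of all Ptgs2 UMIs, 63.0% in Sham and 38.5% in TBI came from endothelial-like cells and 18.5% and 49.0% from fibroblast-like cells. Macrophage-like cells had 0 UMIs among 336 cells in Sham, which allows a share of up to 0.893% of cells with a UMI, and 2 UMIs among 718 cells in TBI. B-like cells had none in either library. Macrophage-like cells, second for Ptgs1, were thus at or near 0 for Ptgs2 in both libraries.

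Within the endothelial-like class the cyclooxygenase genes split by cluster. The cluster led by Gpihbp1, Igfbp3 and Kdr (192 Sham and 305 TBI cells) held Ptgs1 at 345 and 323 CPM and Ptgs2 at 2.68 and 1.48 CPM, 1 UMI in each library. The cluster led by Vwf, Lrg1 and Adgrg6 (54 and 142 cells) held Ptgs1 at 452 and 505 CPM and Ptgs2 at 104 and 97.3 CPM. The cluster led by Slc38a5, Cldn5 and Slco1a4 (13 and 40 cells), genes of vessels with a blood-brain barrier, held Ptgs1 at 263 and 160 CPM and Ptgs2 at 131 CPM (4 UMIs) and 329 CPM (37 UMIs). The cluster led by Sema3g, Gja5 and Stmn2 (49 and 92 cells), of which Sema3g and Gja5 are known from arteries, had 20.6 and 49.8 CPM of Ptgs1 and no Ptgs2 UMI in either library. Both cyclooxygenase genes were found in the Vwf-led and Slc38a5-led clusters, and Ptgs1 nearly alone in the Gpihbp1-led cluster.

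Hpgd followed neither. The Vwf-led cluster held it at 69.5 CPM (8 UMIs) and 103 CPM (38 UMIs), and the Slc38a5-led cluster had no UMI of it in either library. Slco2a1, which encodes the carrier that takes prostaglandins into cells, had its highest class level in endothelial-like cells, 151 and 198 CPM.

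**Figure D2:**
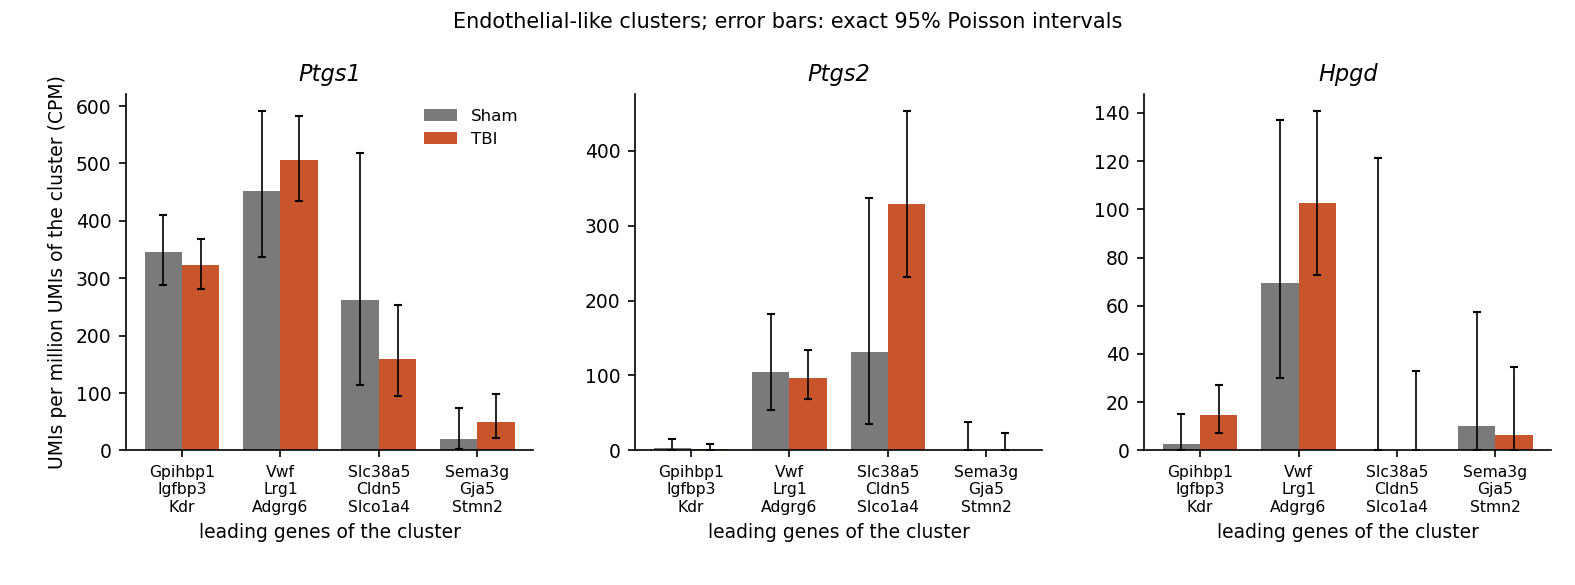
Levels of Ptgs1, Ptgs2 and Hpgd (vertical axes, CPM of the cluster) in the 4 endothelial-like clusters, named on the horizontal axis by leading genes. Grey bars are the Sham library, orange bars the TBI library and error bars exact 95% Poisson intervals of the counts. Ptgs2 is near 0 in the Gpihbp1-led and Sema3g-led clusters and reaches 329 CPM in the Slc38a5-led cluster of the TBI library.

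Ptgds encodes the lipocalin-type prostaglandin D synthase, a secreted protein of the leptomeninges and choroid plexus, and lies at chr2:25466709-25470046 on the minus strand (ENSMUSG00000015090). Fibroblast-like cells held it at 2509 CPM (946 UMIs) in Sham and 3655 CPM (8420 UMIs) in TBI. Choroid plexus-like cells held it at 1777 CPM (592 UMIs) and 1899 CPM (1496 UMIs). The spread over cells was opposite in these classes. Of the choroid plexus-like cells 88.3% in Sham and 87.3% in TBI had a Ptgds UMI (medians of 3000 and 3542 UMIs per cell), against 0.539% and 2.42% of the B-like cells (3073 and 2658 UMIs), whereas 119 of 134 and 666 of 779 fibroblast-like cells had none. The top 10% of fibroblast-like cells held 99.9% and 99.6% of the class's Ptgds UMIs, and 1 cell held 372 of the 946 and 3349 of the 8420. The pineal-like level in Sham, 761 CPM, came from 23 UMIs in 1 cell, and besides fibroblast-like and choroid plexus-like cells, macrophage-like cells (53.9 and 42.6 CPM) were the one class with 50 or more UMIs in Sham.

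Clustering the fibroblast-like cells anew placed most Ptgds in a small subcluster led by Atp6v1g3 and Fxyd3, of 7 Sham and 33 TBI cells. It held 676 of the 946 Sham UMIs and 7218 of the 8420 TBI UMIs, at 78096 and 76051 CPM, so that 7.81% and 7.61% of all its transcripts were Ptgds. In it 5 of 7 and 25 of 33 cells had a UMI, with medians of 11 and 37 Ptgds UMIs per cell, at median depths of 1034 and 1755 UMIs. In Sham 1 cell held 372 of the 676 UMIs, and in TBI 1 cell held 3349 of the 7218. The pooled levels thus rest largely on 1 cell per library and are not those of a typical cell of this subcluster. Of 5 arachnoid markers listed, 4 were raised in it, but neither these nor the fibroblast markers were among its 10 leading genes, which include the epithelial genes Epcam and Cldn7, so it is called by its leading genes. A second subcluster, led by Mia and Penk (20 and 158 cells), held Ptgds at 1827 and 1345 CPM. The other 7 subclusters stood below both in each library. The subcluster led by Moxd1 and Slc7a11 (9 and 73 cells) had 0 UMIs in Sham and 110 UMIs, 465 CPM, in 12 of the TBI cells, and 1 cell held 66 of the 110.

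Hpgds encodes the hematopoietic prostaglandin D synthase, known from macrophages, mast cells and Th2 cells, and lies at chr6:65117293-65144908 on the minus strand (ENSMUSG00000029919). Macrophage-like cells held it at 156 CPM (137 to 177, 241 UMIs) in Sham and 137 CPM (125 to 150, 481 UMIs) in TBI, above the next class beyond the intervals in both. They held 82.0% and 82.4% of all Hpgds UMIs. An unnamed cluster led by F630028O10Rik and Dna2 (49 and 107 cells), in which 3 of 12 macrophage markers were raised, reached 399 CPM (27 UMIs) and 455 CPM (57 UMIs). The ILC2 or Th2-like class, in contrast, had 1 and 3 UMIs, 3.53 and 8.50 CPM. Fibroblast-like cells, which held most Ptgds UMIs when the Atp6v1g3-led subcluster was counted among them, had 0 UMIs of Hpgds in Sham and 8 in TBI. Barcodes with at least 4 of 8 mast cell markers numbered 1 in Sham and 6 in TBI, and 5 of those 6 held an Hpgds UMI, 7 UMIs in all. Of the 6, 2 were macrophage-like, with 6 and 4 mast marker UMIs, and 1 was B-like, with 8. The others were in no named class, and with 664, 155 and 20 mast marker UMIs they held 1, 0 and 2 Hpgds UMIs. A level of Hpgds in mast cells is therefore not read from these barcodes. The 3 basophil markers summed to 0.381 CPM over the Sham library (Mcpt8 and Prss34 at 0) and 117 CPM over the TBI library, without a cluster of their own.

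Ptges encodes the microsomal prostaglandin E synthase coupled to COX-2 and lies at chr2:30889471-30929863 on the minus strand (ENSMUSG00000050737). Most of it was found in fibroblast-like cells, which had 79.6 CPM (53.7 to 114, 30 UMIs) in Sham and 88.1 CPM (76.4 to 101, 203 UMIs) in TBI and held 88.2% and 85.3% of its UMIs. No other named class reached 20 UMIs in either library. Pineal-like cells came next, at 33.1 CPM (0.837 to 184, 1 UMI) and 57.5 CPM (15.7 to 147, 4 UMIs), and did not differ from fibroblast-like cells beyond these intervals. An unnamed cluster led by Cspg5 and Cntnap2 (9 and 47 cells) had 76.3 CPM (1.93 to 425, 1 UMI) and 110 CPM (52.8 to 202, 10 UMIs). The Mia-led subcluster had 104 CPM (13 UMIs) and 110 CPM (80 UMIs), and the Moxd1-led one 132 CPM (4 UMIs) and 127 CPM (30 UMIs). Of 40 TBI fibroblast-like cells with a Ptgs2 UMI, 17 (42.5%) also had a Ptges UMI, against 17.9% of the rest. After thinning each cell to 1000 UMIs it was 4 of 16 cells (25.0%) against 7.89%. In Sham it was 1 of 4 cells (25.0%) against 18.5%, and after thinning 0 of 2 cells against 5.68%. Depth and kind of fibroblast are shared between the cells counted.

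Hpgd encodes the enzyme that inactivates prostaglandins such as E2 by oxidation, and lies at chr8:56294585-56321043 on the plus strand (ENSMUSG00000031613). Macrophage-like cells held it at 658 CPM (618 to 700, 1014 UMIs) in Sham and 698 CPM (671 to 727, 2445 UMIs) in TBI, and 72.0% and 77.0% of these cells had a UMI (medians of 2876.5 and 4433.5 UMIs per cell), against 0.539% and 1.04% of the B-like cells. Monocyte-like cells followed at 555 CPM (453 to 674) and 401 CPM (315 to 502). In Sham the intervals of these classes overlap, and in TBI they do not. Dendritic-like cells had 188 and 134 CPM and fibroblast-like cells 66.3 and 86.4 CPM. Neutrophil-like cells had no Hpgd UMI among 16 Sham and 26 TBI cells, which allows shares of up to 18.8% and 11.5%.

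Alox5, the gene of the lipoxygenase itself, lies at chr6:116410077-116461178 on the minus strand (ENSMUSG00000025701) and was the sparsest of the leukotriene genes, with 166 UMIs in Sham and 337 in TBI. Neutrophil-like cells held it at 217 CPM (104 to 399, 10 UMIs) and 248 CPM (157 to 372, 23 UMIs). The ILC2 or Th2-like cells had 70.7 CPM (20 UMIs) and 96.3 CPM (34 UMIs), macrophage-like cells 51.9 CPM (80 UMIs) and 65.7 CPM (230 UMIs), and monocyte-like cells 38.1 and 64.1 CPM. The last 3 cannot be ordered within their intervals. Endothelial-like cells, the free RNA reference for this gene, had 0 and 1 UMIs.

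Alox5ap lies at chr5:149264767-149288153 on the plus strand (ENSMUSG00000060063) and marked the myeloid classes. Neutrophil-like cells had 2125 CPM (98 UMIs) in Sham and 2190 CPM (203 UMIs) in TBI, and monocyte-like cells 1775 CPM (326 UMIs) and 2282 CPM (427 UMIs), which do not differ beyond their intervals. Dendritic-like cells had 1357 and 1371 CPM, plasmacytoid dendritic-like cells 915 and 973 CPM, macrophage-like cells 830 and 891 CPM and proliferating-like cells 723 and 587 CPM. Migratory dendritic-like cells were far below the other dendritic classes, at 32.2 and 66.4 CPM. The ILC2 or Th2-like class, which held Alox5, had 0 Alox5ap UMIs in Sham and 6 in TBI. Dendritic-like cells held 46.7% of the Alox5ap UMIs in Sham and 32.8% in TBI, and macrophage-like cells 32.8% and 46.3%. Dendritic-like cells made up 6.51% and 5.12% of the cells, and macrophage-like cells 16.4% and 19.0%.

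Ltc4s and Lta4h take leukotriene A4 in different directions, and their classes differed. Ltc4s (chr11:50236461-50238616, minus strand, ENSMUSG00000020377) was highest in macrophage-like cells, at 283 CPM (257 to 311, 436 UMIs) and 277 CPM (260 to 295, 969 UMIs). Choroid plexus-like cells had 204 CPM (158 to 259) and 104 CPM (82.8 to 129), and migratory dendritic-like cells 118 CPM (22 UMIs) and 171 CPM (36 UMIs). Neutrophil-like cells had 0 UMIs in Sham and 1 in TBI. Lta4h (chr10:93453411-93484875, plus strand, ENSMUSG00000015889) was highest in neutrophil-like cells, at 195 CPM (9 UMIs) and 313 CPM (29 UMIs), followed by NK-like cells at 155 and 181 CPM, T-like cells at 117 and 140 CPM and ILC2 or Th2-like cells at 113 and 147 CPM. Neighbours in this order, the neutrophil-like and NK-like cells included, did not differ beyond their intervals in either library. Macrophage-like cells were among the lowest, at 33.1 and 41.7 CPM. Across 16 classes the levels of these genes had a correlation of -0.46, the lowest of the 45 pairs of the 10 genes. Neutrophil-like cells, too few in Sham, were not among the 16. The points share the libraries and their depth.

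The macrophage-like cells were not uniform in these genes. Clustered anew without them, they fell into 6 subclusters, of which the sets led by Lyve1 and Tlr5 (59 Sham and 202 TBI cells) and by Smim1 and Cd209f (94 and 157 cells) stood apart. Ltc4s was at 585 and 522 CPM in the Lyve1-led set and at 692 and 651 CPM in the Smim1-led set. It was at 106 and 41.0 CPM in the set led by Rgs1 and Egr1 (75 and 203 cells), and at 21.3 and 35.0 CPM in the set led by S100a4 and S100a6 (30 and 62 cells). Hpgds was also highest in the first pair, at 277 and 173 CPM (Lyve1-led), 277 and 240 CPM (Smim1-led), 118 and 133 CPM (Rgs1-led) and 36.5 and 35.0 CPM (S100a4-led), although the intervals of the Lyve1-led and Rgs1-led sets overlap in TBI. Hpgd was highest in the Smim1-led set, at 1133 and 1183 CPM, and lowest among these 4 in the S100a4-led set, at 283 and 262 CPM.

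Alox5ap had another order, at 1080 and 1089 CPM in the S100a4-led set, 857 and 859 CPM in the Rgs1-led set, 823 and 933 CPM in the Lyve1-led set and 600 and 666 CPM in the Smim1-led set. The S100a4-led set had 3 of 10 dendritic and 2 of 9 monocyte markers raised over the other macrophage-like cells, with Cd209a and Spn among its 10 leading genes and no macrophage marker there. The Smim1-led cells had a median of 1439 UMIs and the S100a4-led cells of 8597.5. A set led by Hba-a2, with a median of 889 UMIs, carried 4 of 5 red cell markers among its leading genes, and its values are shown only in the plot of macrophage-like subclusters. In thinned macrophage-like cells, Alox5ap was found in 63.6% and 64.4% of the cells with an Alox5 UMI (11 and 45 cells) and in 48.3% and 52.0% of the rest, and Hpgd in 68.1% and 54.1% of the cells with an Hpgds UMI and in 46.1% and 44.8% of the rest. Ltc4s was found in 18.5% and 22.2% of the cells with an Alox5ap UMI and in 29.5% and 21.9% of the rest, and Hpgds in 18.5% and 19.6% of the cells with a Ptgs1 UMI and in 18.6% and 15.1% of the rest.

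**Figure D3:**
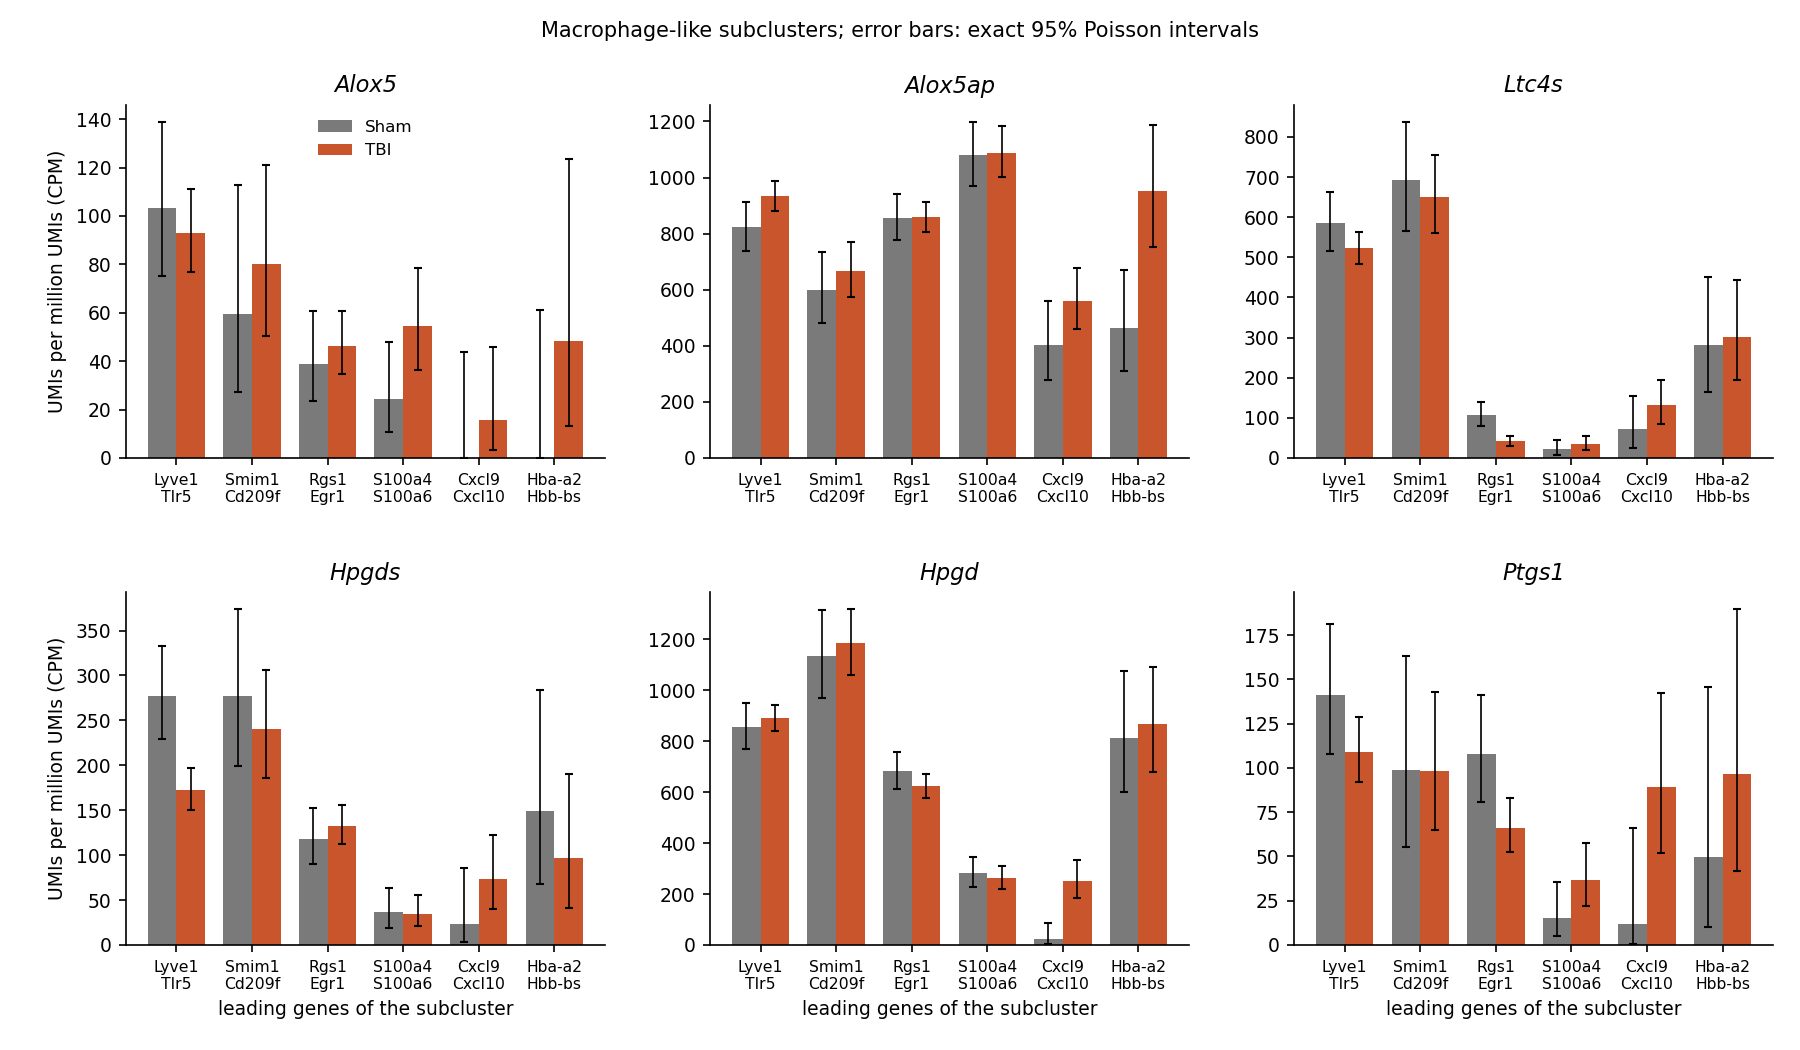
Levels of 6 of the genes (vertical axes, CPM of the subcluster) in the 6 subclusters of macrophage-like cells, named on the horizontal axis by leading genes. Grey bars are Sham, orange bars TBI and error bars exact 95% Poisson intervals of the counts. Ltc4s is above 500 CPM in the Lyve1-led and Smim1-led sets and at or below 106 CPM in the Rgs1-led and S100a4-led sets of both libraries.

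Sham and TBI were then set side by side within each class. Of the 190 pairs of a gene and a class, 39 held at least 50 UMIs over both libraries, and 6 of these differed by more than 2-fold. The ratio was above 0 in 28 of the 39 (71.8%). Among all genes in the same classes it was above 0 in 51.0% of 50728 pairs. The 39 pairs repeat the same genes over classes of the same libraries, so they are not independent of one another. Some of the 28 rest largely on a single cell or on predicted doublets, as given below. No general rise of these genes in TBI is read from this share. The same limits applied to all genes gave the background. In macrophage-like cells 0 of 8 tested members were past 2-fold, where 1.37% of 7682 genes were, and the members' median log2 ratio was 0.03 against 0.02 for all genes. In fibroblast-like cells it was 2 of 7, where 3.93% of genes were, with medians of 0.54 and -0.01. In endothelial-like cells it was 1 of 4, where 1.59% were, with medians of 0.58 and 0.01, and in dendritic-like cells 2 of 5, where 1.52% were, with medians of -0.12 and -0.00. In immature B-like cells the 1 member tested was past 2-fold, where 2.83% of genes were. The fibroblast-like median of 0.54 is the ratio of Ptgds, which rested on few cells, as given below.

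In the other 10 classes no tested member was past 2-fold. The members tested there numbered 1 in B-like cells (background 2.17%), 1 in T-like cells (1.79%), 2 in ILC2 or Th2-like cells (1.15%), 2 in choroid plexus-like cells (2.8%) and 1 in NK-like cells (1.34%). They numbered 2 in monocyte-like cells (1.93%), 2 in proliferating-like cells (3.84%), 1 in plasmacytoid dendritic-like cells (1.9%), 1 in migratory dendritic-like cells (4.68%) and 1 in neutrophil-like cells (5.07%). Counts of members this small show only which members were past the limit.

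**Figure D4:**
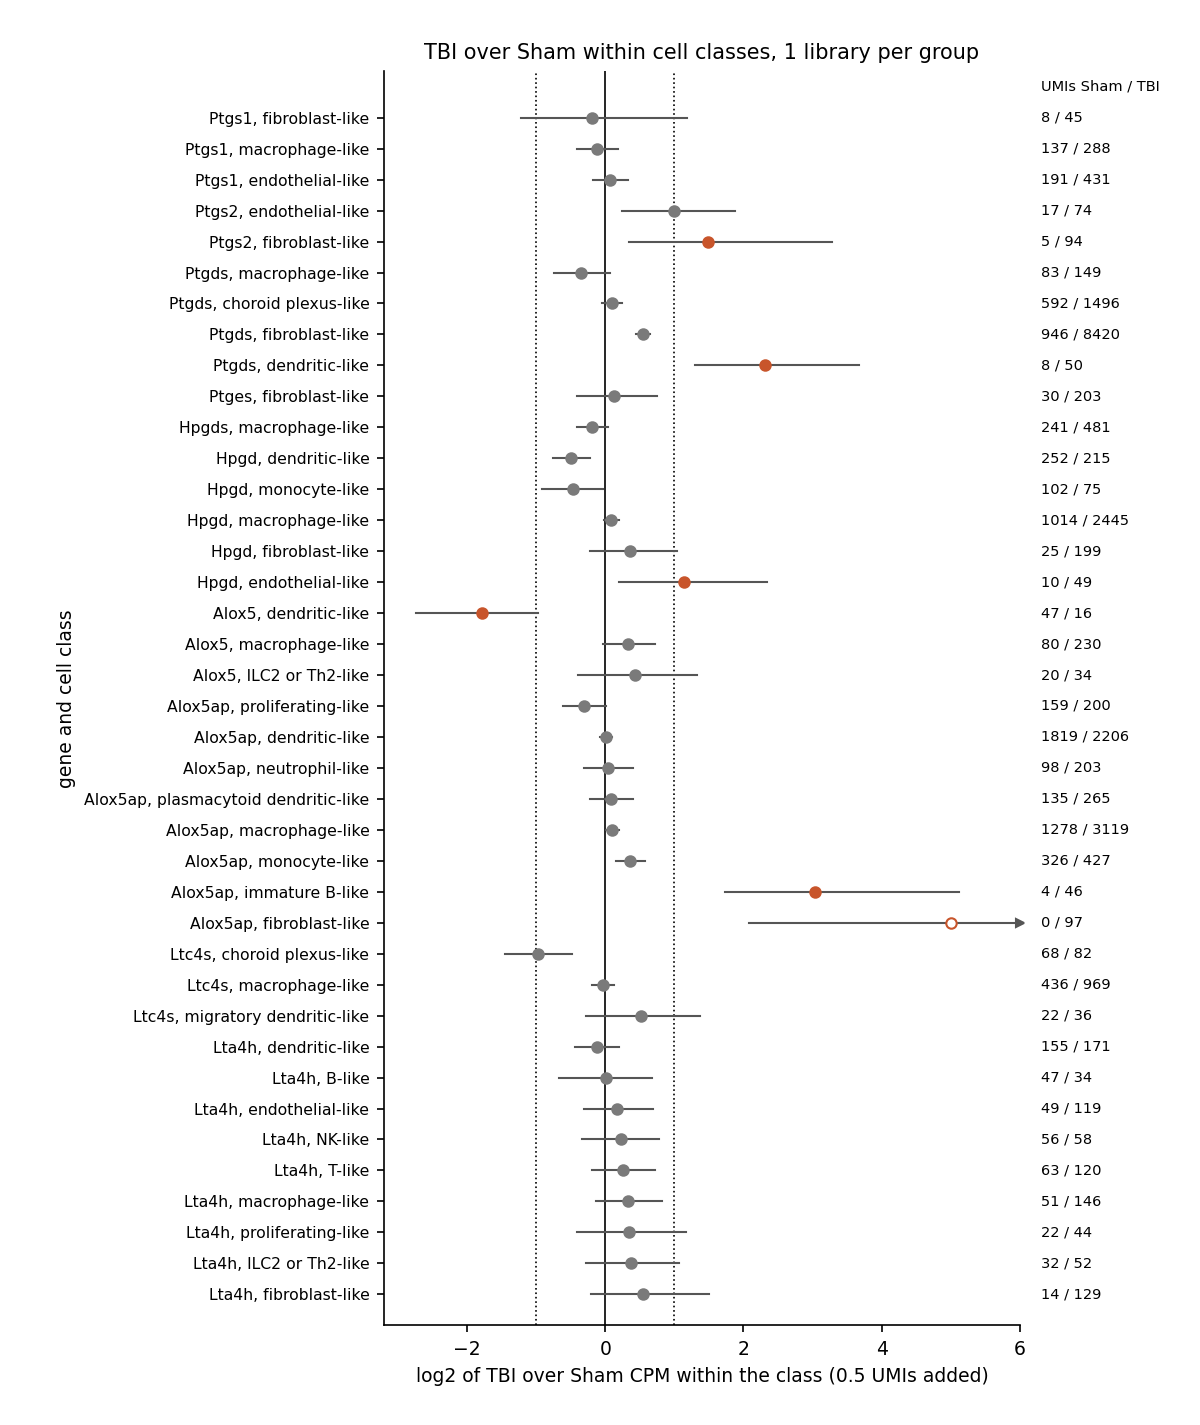
Log2 ratio of TBI over Sham (horizontal axis) for the 39 pairs of gene and cell class with at least 50 UMIs (vertical axis), with exact 95% binomial intervals of the counts and the UMIs of each library at the right. Dotted lines mark 2-fold, orange points are past it, and the open point has 0 UMIs in Sham, so that its position depends on the 0.5 added. Most points lie between the dotted lines, and 1 of the 6 orange points, Alox5 in dendritic-like cells, is on the lower side.

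Ptgs2 was higher in TBI in fibroblast-like cells and in endothelial-like cells, each taken as a class. No endothelial-like cluster differed beyond its counting interval. In fibroblast-like cells 5 UMIs in 4 of 134 Sham cells stood against 94 UMIs in 40 of 779 TBI cells, a log2 ratio of 1.49 (0.35 to 3.28). It was 1.26 without the cell with the most UMIs and 1.36 without predicted doublets. The excess lay mainly in the Moxd1-led subcluster, which had 0 UMIs in 9 Sham cells and 56 UMIs, 237 CPM, in 73 TBI cells. Against the floor of its Sham cells this is at least 2.39-fold higher. The 2 fibroblast-like clusters of the first clustering had ratios of opposite sign. The Dcn-led one had 1 and 77 UMIs, at 3.09 (1.15 to 8.99). The Snhg11-led one had 4 and 17 UMIs, 42.2 and 28.7 CPM, at -0.68 (-2.17 to 1.47). Higher Ptgs2 was thus seen beyond the interval in the Dcn-led cluster only. The intervals of the 2 clusters overlap, and the difference between them was not tested. In endothelial-like cells 17 UMIs in 11 of 308 Sham cells stood against 74 UMIs in 32 of 579 TBI cells, a log2 ratio of 0.99 (0.25 to 1.88), just inside the 2-fold limit. The Vwf-led cluster did not share it, at a log2 ratio of -0.14 (-1.07 to 0.98), and the Slc38a5-led cluster had 1.17 (-0.15 to 3.27), with 12 of its 37 TBI UMIs in 1 cell. The Vwf-led and Slc38a5-led clusters held most of the endothelial-like Ptgs2 UMIs. They made up 54 and 13 of 308 Sham cells and 142 and 40 of 579 TBI cells. The part of this makeup was not tested. Without the Slc38a5-led cluster the endothelial-like ratio was 0.43 (-0.48 to 1.50). The fibroblast marker list moved with this class, summing to 1591 CPM in Sham and 3338 CPM in TBI (9 and 12 of 12 markers with a UMI, Mfap4, Lum and Fbln1 at 0 in Sham), and its part in the result was not tested.

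**Figure D5:**
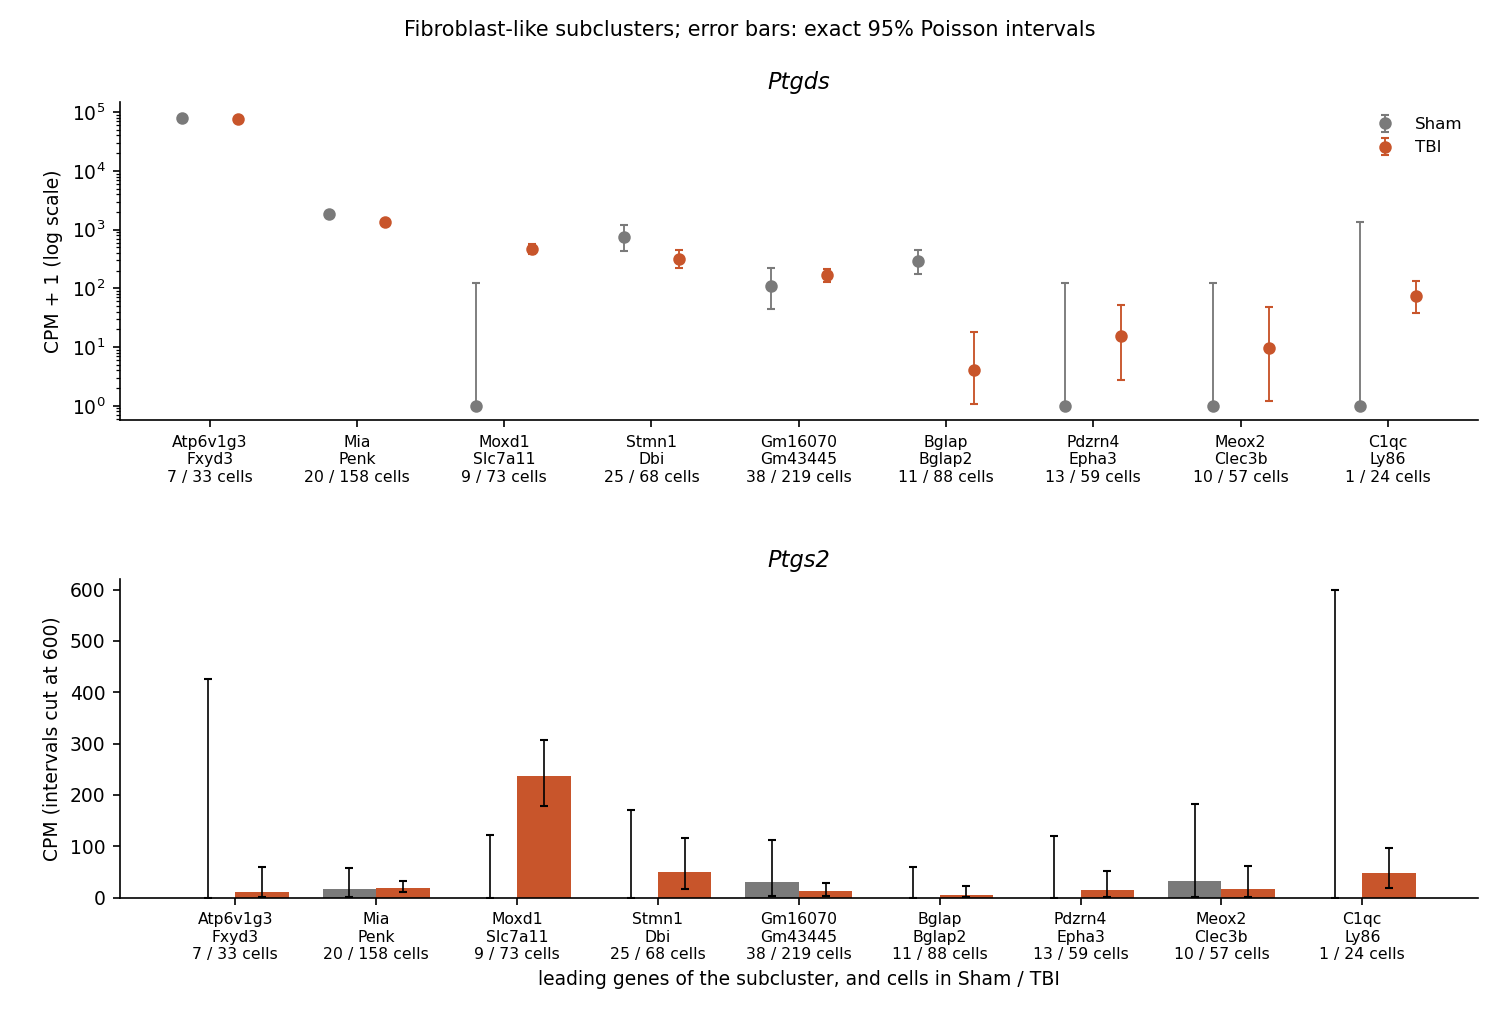
Ptgds (top, CPM plus 1 on a log axis) and Ptgs2 (bottom, CPM) in the 9 subclusters of fibroblast-like cells, named on the horizontal axis by leading genes with their cells in Sham and TBI. Grey is Sham, orange TBI, and error bars are exact 95% Poisson intervals of the counts, cut at 600 CPM in the lower panel. Ptgds is at 78096 and 76051 CPM in the Atp6v1g3-led subcluster, and Ptgs2 is highest in the Moxd1-led subcluster of the TBI library, at 237 CPM.

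The higher Ptgds of fibroblast-like cells in TBI, a log2 ratio of 0.54 (0.45 to 0.64), rested on few cells. Without the cell with the most Ptgds UMIs in each library it was -0.18, and without the Atp6v1g3-led subcluster -0.43. Within that subcluster the ratio was -0.04, and within the Mia-led subcluster -0.44 (-0.65 to -0.23). Choroid plexus-like cells had a ratio of 0.10 (-0.04 to 0.24) and macrophage-like cells -0.34 (-0.74 to 0.07). In dendritic-like cells Ptgds had 8 UMIs in Sham and 50 in TBI, a log2 ratio of 2.31 (1.29 to 3.67), but 30 of the 50 were in 1 cell, and it was 1.01 without the top cells. The fibroblast marker list summed there to 35.1 CPM in Sham (9 of 12 markers with a UMI; Mfap4, Pcolce and Lum at 0) and 178 CPM in TBI (11 of 12; Pcolce at 0). The choroid plexus list summed to 28.4 CPM (3 of 9; Folr1, Kl, Clic6, Kcne2, Prlr and Otx2 at 0) and 69.0 CPM (6 of 9; Kl, Clic6 and Aqp1 at 0), and the part of either list was not tested. Ptges in fibroblast-like cells had a ratio of 0.13 (-0.41 to 0.75).

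In macrophage-like cells as a class, the genes of prostaglandin D synthase, prostaglandin breakdown and COX-1 did not differ beyond their counting intervals. Hpgds had a log2 ratio of -0.19 (-0.41 to 0.04), Hpgd of 0.09 (-0.02 to 0.19) and Ptgs1 of -0.12 (-0.41 to 0.19). Below the class, Hpgds in the Lyve1-led set was lower in TBI, at -0.69 (-1.01 to -0.35), and not in the Rgs1-led set, at 0.16 (-0.28 to 0.63). Among the clusters of the first clustering, Hpgds was higher in TBI in the Fcgr4-led one, at 0.44 (0.005 to 0.91). It was lower in the Cd209f-led one, at -0.63 (-0.91 to -0.33), and had -0.17 (-0.93 to 0.63) in the Ccl8-led one. Hpgd in the set led by Cxcl9 and Cxcl10, genes induced by interferon, had 2 UMIs in 12 Sham cells and 48 UMIs in 29 TBI cells, 23.6 and 251 CPM. In the same set Ptgs1 had 1 and 17 UMIs and Hpgds 2 and 14. Ptgs1 was lower in TBI in the Rgs1-led set, at -0.71 (-1.23 to -0.17). It was -0.38 (-0.82 to 0.09) in the Lyve1-led set. In the macrophage-like cluster led by Fcgr4 and Slamf9, from the first clustering, the Ptgs1 ratio was 0.01 (-0.51 to 0.56). Ptgds had opposite signs, with 12.2 and 42.8 CPM in the Rgs1-led set and 87.0 and 35.6 CPM in the Lyve1-led set. These differences between clusters and between subclusters were not tested.

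Hpgd ran in different directions in the other classes. In endothelial-like cells 10 UMIs in 8 Sham cells stood against 49 UMIs in 30 TBI cells, a log2 ratio of 1.14 (0.20 to 2.34). It was 0.77 without predicted doublets and 0.96 without the top cells, and 13 of the 49 UMIs lay in predicted doublets. The macrophage marker list summed to 50.3 CPM in the Sham endothelial-like cells (7 of 12 markers; Csf1r, Ms4a7, Fcrls, Adgre1 and Cx3cr1 at 0) and 372 CPM in the TBI cells (12 of 12), and its part was not tested. Dendritic-like cells went from 188 to 134 CPM, at -0.49 (-0.76 to -0.22), and monocyte-like cells from 555 to 401 CPM, at -0.47 (-0.92 to -0.03).

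Among the leukotriene genes, Alox5 in dendritic-like cells was the one pair past 2-fold on the lower side. Its 47 UMIs lay in 10 of 133 Sham cells and its 16 UMIs in 9 of 193 TBI cells, a log2 ratio of -1.79 (-2.74 to -0.97). The share of cells was 7.52% and 4.66%, 1 Sham cell held 15 of the 47 UMIs, and the ratio was -1.26 without the top cells and -0.68 as a mean over cells of counts per 10000. The list of ILC2 or Th2 markers summed to 76.1 CPM in the Sham cells (6 of 8 markers; Il5 and Il13 at 0) and 49.7 CPM in the TBI cells (3 of 8; Rnf128, Areg, Il5, Il13 and Tnfsf11 at 0), and its part was not tested. Dendritic-like Alox5ap stood level beside it, at 0.01 (-0.08 to 0.10). In macrophage-like cells Alox5 had a ratio of 0.33 (-0.03 to 0.72) and Alox5ap of 0.10 (0.01 to 0.20), and in monocyte-like cells Alox5ap had 0.36 (0.15 to 0.57). In the macrophage-like cluster led by Fcgr4 and Slamf9, Alox5 went from 16 to 75 UMIs, at 1.18 (0.42 to 2.09). It was -0.14 (-0.59 to 0.35) in the Cd209f-led cluster and 0.02 (-1.26 to 1.44) in the Ccl8-led one. In the subclusters Alox5 had 1.10 (-0.01 to 2.50) in the S100a4-led and 0.23 (-0.52 to 1.09) in the Rgs1-led set. It had -0.17 (-0.67 to 0.38) in the Lyve1-led and 0.39 (-0.74 to 1.74) in the Smim1-led set. The higher Alox5 beyond its interval was thus seen in the first clustering and not in these sets. The difference between these clusters was not tested.

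Alox5ap in fibroblast-like cells went from 0 UMIs in 134 Sham cells to 97 UMIs in 20 of 779 TBI cells, at least 5.29-fold higher against the floor. Of these 97 UMIs, 89 lay in a subcluster of 1 Sham and 24 TBI cells led by C1qc and Ly86, in which the 12 macrophage markers summed to 14069 and 12973 CPM, and 73 lay in predicted doublets. Over the whole class that list summed to 194 CPM in Sham (10 of 12 markers; Cbr2 and Cx3cr1 at 0) and 950 CPM in TBI (12 of 12). All 24 Ltc4s UMIs of the fibroblast-like TBI cells lay in the same subcluster. Without it 8 Alox5ap UMIs were left in TBI against 0 in Sham, for which no fold is given.

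In immature B-like cells Alox5ap had 4 UMIs in Sham and 46 in TBI, a log2 ratio of 3.03 (1.73 to 5.12). Here 31 of the 46 UMIs were in 1 cell, and the ratio was 1.51 without the top cells. The macrophage list summed to 43.5 CPM (6 of 12 markers; Mrc1, Ms4a7, Cbr2, Fcrls, Adgre1 and Cx3cr1 at 0) and 252 CPM (9 of 12; Mrc1, Pf4 and Cbr2 at 0) in these cells, and its part was not tested. T-like and NK-like cells had 0 Alox5ap UMIs in Sham, and 25 UMIs in 6 cells and 27 UMIs in 3 cells in TBI, both below the limit of 50 UMIs. Predicted doublets, of which these classes had 0 in Sham and 14 and 3 in TBI, held 23 of the 25 and 26 of the 27 UMIs, so no fold is given. The macrophage list went from 51.8 CPM (9 of 12 markers; Csf1r, Cbr2 and Adgre1 at 0) to 488 CPM (12 of 12) in T-like cells and from 47.0 CPM (6 of 12; C1qa, C1qc, Mrc1, Ms4a7, Fcrls and Adgre1 at 0) to 281 CPM (12 of 12) in NK-like cells, and its part was not tested.

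Ltc4s was level in macrophage-like cells as a class, at -0.03 (-0.20 to 0.13), but not in the Rgs1-led subcluster, where 52 UMIs in Sham stood against 47 in TBI, 106 and 41.0 CPM, a log2 ratio of -1.37 (-1.97 to -0.77). The Lyve1-led and Smim1-led sets had -0.17 and -0.09. In the Fcgr4-led macrophage-like cluster of the first clustering Ltc4s had 33.2 and 26.9 CPM, a ratio of -0.31 (-1.01 to 0.43). The lower level was thus not seen beyond the interval in the Fcgr4-led cluster. The Ccl8-led cluster had 75 and 74 UMIs, 599 and 393 CPM, at -0.61 (-1.09 to -0.12), and the Cd209f-led one -0.14 (-0.32 to 0.05). The part of how cells were assigned to sets was not tested. In choroid plexus-like cells Ltc4s had a ratio of -0.97 (-1.45 to -0.49). The cell with the most UMIs held 20 of the 68 in Sham, and without the top cells it was -0.61. The macrophage list summed there to 138 CPM in Sham (7 of 12 markers; C1qb, Ms4a7, Cbr2, Adgre1 and Cx3cr1 at 0) and 781 CPM in TBI (12 of 12). The fibroblast list summed to 393 CPM (9 of 12; Mfap4, Serpinf1 and Slc47a1 at 0) and 1174 CPM (12 of 12), and the part of either list was not tested. The median of gene ratios in this class lay 0.13 below the scaling by total counts on the log2 scale. Lta4h was within 2-fold in each of the 9 classes tested, from -0.12 in dendritic-like cells to 0.55 (-0.21 to 1.50) in fibroblast-like cells, with 8 of the 9 ratios above 0.

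Over the whole libraries, Ptgs2, Ptgds and Ptges differed more than within the classes that held most of them. Fibroblast-like cells made up 6.56% (5.52 to 7.72) of the Sham and 20.6% (19.4 to 22.0) of the TBI cells. Ptges went from 4.32 to 17.1 CPM over all cells, a log2 ratio of 1.96, which became 0.63 when the TBI classes were weighted by their Sham shares. Ptgds went from 215 to 735 CPM, 1.78 before and 0.47 after the weighting. Ptgs2 went from 3.43 to 13.8 CPM, 1.98 before and 1.35 after. The other 7 genes lay between -0.04 and 0.33 before and between -0.03 and 0.19 after.

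The genes with the most similar pattern over 16 classes were sought among 9880 genes by the Pearson correlation of log2 CPM. It is a description in which all points share the 2 libraries. The neutrophil-like, pineal-like and gamma-delta or Th17-like classes had fewer than 20 Sham cells and were left out. Neutrophil-like cells, the highest class of Ptgs2, Alox5 and Lta4h, are thus not covered. For Ptgs1 these were Slco2b1 (0.89), Sec14l1 and Pald1. For Ptgs2 they were Dchs1 (0.98), Hmcn1 and the prostaglandin carrier gene Slco2a1 (0.97). Mia (0.96), Slc13a4 and Perp were most like Ptgds, and Bnc2 (0.99), Tspan11 and Prdm6 most like Ptges. Hpgds went with the chemokine genes Ccl2 (0.92) and Ccl12 and the scavenger receptor gene Cd163, and Hpgd with Csf1r (0.94), Clec4a1 and Hacd4. Alox5 went with Rasgrp4 (0.84), Mctp1 and the cysteinyl leukotriene receptor gene Cysltr1 (0.79), and Alox5ap with Tifab (0.98), Cd300a and Cd68. Ltc4s went with Mpi (0.83), Akr1a1 and Rab20, and Lta4h with D16Ertd472e (0.85), Efr3a and Chn2. Among the 10 genes themselves the closest pairs were Ptgs1 with Ptgs2 (0.72), Ptgds with Ptges (0.70) and Hpgd with Alox5ap (0.65).

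A list of 49 other genes of these pathways was read in the same way, and 48 were in the matrices. With at least 50 UMIs, 30 of them gave 87 pairs of gene and class, of which 2 were past 2-fold higher in TBI and 1 lower, with a median log2 ratio of 0.01. The share of all genes past 2-fold was 1.15% to 5.07% by class, so these counts are not a result about the list. Among the phospholipases, Pla2g4a, which encodes the cytosolic enzyme that frees arachidonic acid, was highest in fibroblast-like cells (111 and 106 CPM). It went from 30.8 to 70.5 CPM in endothelial-like cells, a log2 ratio of 1.16 (0.47 to 1.99), the class in which Ptgs2 stood just inside the limit. Pla2g2d was highest in macrophage-like cells (96.7 and 82.3 CPM) and Pla2g5 in pineal-like cells (132 and 86.3 CPM, 10 UMIs in all).

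Of the 7 other prostanoid synthase genes in the matrices, all had at least 1 pair tested. Ptgis, the prostacyclin synthase gene, was highest in fibroblast-like cells (302 and 317 CPM) and Tbxas1, the thromboxane synthase gene, in macrophage-like cells (110 and 99.97 CPM). Akr1b3, an aldose reductase gene that also has prostaglandin F synthase activity, was highest in pineal-like cells (165 and 518 CPM, 5 and 36 UMIs). Cbr1, which encodes a carbonyl reductase acting on prostaglandins, went from 29.2 to 67.3 CPM in fibroblast-like cells, at 1.15 (0.33 to 2.24). Prxl2b, a prostamide and prostaglandin F synthase gene, was highest in pineal-like cells (33.1 and 302 CPM, 1 and 21 UMIs). In fibroblast-like cells Prxl2b went from 82.2 to 33.4 CPM, at -1.31 (-1.92 to -0.65). Alox12 was the one other lipoxygenase gene with enough UMIs, in endothelial-like cells (53.6 and 74.3 CPM).

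No pair was past 2-fold among 18 of metabolism, 7 of transporters, 9 of prostanoid receptors and 7 of leukotriene receptors, where few would be at these background shares. The receptors lay in other classes than the enzymes in part. The prostaglandin D2 receptor gene Ptgdr was highest in fibroblast-like cells (172 and 155 CPM), a class whose Ptgds lay mostly in the small Atp6v1g3-led subcluster. Whether the same cells held both genes was not counted. The thromboxane receptor gene Tbxa2r was highest in plasmacytoid dendritic-like cells (149 and 165 CPM). The prostacyclin receptor gene Ptgir (124 and 111 CPM), the leukotriene B4 receptor gene Ltb4r1 (495 and 445 CPM) and the cysteinyl leukotriene receptor gene Cysltr1 (230 and 221 CPM) were highest in ILC2 or Th2-like cells, where Cysltr2 had 9 UMIs in all. Cyp4f18, which encodes an enzyme that breaks down leukotriene B4, was highest in monocyte-like cells (299 and 449 CPM), Mgst3 in pineal-like cells (198 and 360 CPM) and Ggt5, a gene of the step from leukotriene C4 to D4, in pericyte-like cells (93.1 and 227 CPM). Of the export carriers, Abcc4 was highest in endothelial-like cells (92.5 CPM in both libraries) and Abcc1 in fibroblast-like cells (39.8 and 41.2 CPM).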

How the data were processed

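Single-cell RNA-seq was measured in 2 pooled libraries, Sham and TBI. The authors made the deposited values, whole-number UMI counts per gene and barcode without normalization, with Cell Ranger (2.1.1 in the submitters' processing notes, 3.1.0 in the matrix header) on mm10. The Sham matrix has 2699 barcodes with 9527334 UMIs in total, and the TBI matrix 4349 with 15011079.

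Barcodes were kept with 150 to 5000 genes, at most 20% mitochondrial and at most 5% hemoglobin UMIs, the limits of the study's methods (604 Sham and 431 TBI barcodes were over the last one). Both libraries were clustered together with scanpy 1.11.5 (counts per 10000, log scale, 2000 variable genes, 20 components, 20 neighbours, Leiden resolution 0.8, seed 1), leaving out of the variable genes the 59 members and pathway genes. The paper's annotation was not used, so a difference from its populations may come from the rebuilt names. A cluster was given the class with the largest share of its markers raised (at least 3-fold over other cells with 0.05 added, a UMI in at least 20% of cells), with at least 3 markers and 50% of the list. This rule was set after the clusters were seen. Doublets were predicted by simulation (2 per cell, 40 neighbours, a rate of 0.8% per 1000 cells, giving 33 Sham and 114 TBI cells), left in, and removed in an alternative.

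For each class and library the UMIs of all its cells were added up. Ratios used class totals and 0.5 added, and a pair was read as past 2-fold at 50 or more UMIs in both libraries together. Intervals are at 95% and cover counting error only. Thinning drew 1000 UMIs per cell and left out 388 Sham and 539 TBI cells. Likeness used log2 of CPM plus 10 over classes with at least 20 cells and genes with at least 200 UMIs. The named genes were the 10 members, the 3 most like each, and the pathway genes past 2-fold or among the 3 with the highest class CPM in their group. Tbxas1 was added after its values were seen. Clusters and subclusters are called by their leading genes, and the Moxd1-led, Slc38a5-led and C1qc-led sets were singled out after their values were seen. Gene positions come from GENCODE vM21 and promoters from RefSeq. The members, lists and markers were chosen with earlier results of these data known. The ratio, its interval, the 2-fold call and the naming rule were tested on simulated data. The simulated counts had counting error only, changes larger than 2-fold and depths above those of small classes. Clustering, doublet prediction and thinning were not part of that test.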

Additional observations from a re-analysis of the deposited data

Results flagged for a closer look

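Barcodes left out of all comparisons for their hemoglobin UMIs alone, 289 in Sham and 174 in TBI, held transcripts of the members above the floor of 3 counts. Per 1000000 non-hemoglobin UMIs, the Sham barcodes held Ptgs1 at 12.3, Ptgds at 21.5, Hpgd at 61.4, Alox5ap at 159.7, Ltc4s at 27.6 and Lta4h at 18.4 CPM. The TBI barcodes held Ptgs1 at 20.8, Ptgds at 75.0, Ptges at 16.7, Hpgd at 41.7, Alox5ap at 267 and Lta4h at 45.9 CPM. These barcodes had medians of 811 and 781 non-hemoglobin UMIs.

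Hpgd stood out as moving in opposite directions between classes. Its log2 ratio of TBI over Sham was 1.14 in endothelial-like cells, and -0.49 in dendritic-like and -0.47 in monocyte-like cells, with intervals that leave out 0 in each. Of the 49 TBI UMIs in endothelial-like cells, 13 lay in predicted doublets, and no single endothelial-like cluster had an interval that leaves out 0. The macrophage marker list summed in this class to 50.3 CPM in Sham and 372 CPM in TBI, and its part was not tested. The difference between the classes was not tested.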

How the results depend on the processing

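No paired analysis was possible because each group is 1 library. Of 429 values recomputed for 90 results, 386 stayed within their error and none past 2-fold changed sign. Ptgds in fibroblast-like cells fell below 0 in 3 settings: its log2 ratio of 0.54 was 0.32 at resolution 1.6 (742 CPM in Sham, 930 in TBI, where 34 Sham and 70 TBI cells led by Nnat and Krt19 went unnamed with 21835 and 40569 CPM), -0.068 as a mean over cells, -0.18 without the top cell and -0.43 without the Atp6v1g3-led subcluster. At resolution 1.6 choroid plexus-like cells, at 1777 CPM in Sham and 1899 CPM in TBI, thus stood above fibroblast-like cells for Ptgds. The fibroblast-like Ptgds CPM in TBI was 3750 with the members among the variable genes. Without predicted doublets it was 2680 in Sham and 3965 in TBI, and the class held 83.3% of the TBI Ptgds UMIs. The macrophage-like class then held 81.0% of the Hpgd, 47.6% of the Alox5ap and 85.1% of the Ltc4s UMIs of TBI. As means over cells the ratios of Hpgd and Ltc4s in macrophage-like cells and Alox5ap in neutrophil-like cells were -0.059, -0.24 and -0.36, and the last was 0.46 with the median of gene ratios as scaling. This scaling lay 0.42 below the total in neutrophil-like and 0.20 in pericyte-like and pineal-like cells. Alox5ap in immature B-like cells was 1.36 with members among the variable genes and 1.42 with no hemoglobin limit. With Sham shares the whole-library ratios were 1.35 (Ptgs2), 0.47 (Ptgds), 0.63 (Ptges), 0.083 (Hpgd), 0.024 (Alox5ap) and -0.0075 (Ltc4s). Pairs past 2-fold numbered 6 of 39 at 50 UMIs, 12 of 56 at 20 and 0 of 26 at 100, so all 6 rest on fewer than 100 UMIs. The share of all genes was counted at the limit of 50 only, and it takes in genes with more than 100 UMIs. These counts therefore show how the calls depend on the limit and are not a result about the members. The cause was not tested in these cases. Leaving out the Atp6v1g3-led, C1qc-led and Slc38a5-led sets was chosen after seeing the data. The pineal-like class could not be named with the members among the variable genes, nor, without a hemoglobin limit, the gamma-delta or Th17-like one.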
